A study of Homo sapiens with 6 samples.

Results

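The genes described here are 50 genes of mitosis and the spindle checkpoint, followed in DCIS.COM cells with and without knockdown of BCL9. They were chosen by name and by role, as mitotic kinases, cyclins, kinesins, kinetochore and checkpoint genes. All 50 were found among the 58676 genes of the deposited table, 49 under their current symbols and SGO1 under the older symbol SGOL1. DCIS.COM is an established human breast cancer cell line of the basal type that serves as a model of ductal carcinoma in situ. NS control cells carried the lentiviral vector PLKO.1 with a non-silencing shRNA, and BCL9 KD cells carried the same vector with an shRNA against BCL9, a co-activator of Wnt signaling. Each group had 3 replicates, each grown in its own flask, and a single shRNA sequence was used for the knockdown. RNA was sequenced from unsorted cultures, so a change in the share of cells in mitosis and a change in RNA per mitotic cell cannot be told apart.

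Mitosis is driven by CDK1 bound to cyclin A or cyclin B, which PLK1 and the Aurora kinases assist. The spindle checkpoint holds the anaphase-promoting complex (APC/C) back until every kinetochore is attached to microtubules, and CDC20 then lets this complex mark securin and cyclin B for destruction. Most of these genes are transcribed in a wave late in the cell cycle, through the MuvB complexes and FOXM1, so their RNA is widely read as a sign of dividing cells. The promoter element known as CHR, often TTTGAA, is bound by MuvB complexes, and the CCAAT box is bound by NF-Y.

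The promoters of the members with the largest fold changes that have a single start in the RefSeq promoter table (GRCh38.p14) are shown first. Promoter letters played no part in the choice of the members. Of the 42 members in that table, 29 held TTTGAA and 35 held CCAAT. Each line gives the 150 bases before the start, 5′ to 3′ along the gene. Capitals mark TTTGAA and CCAAT, or their reverse complements TTCAAA and ATTGG. CENPE lies at chr4:103198344-103198493 on the minus strand, ASPM at chr1:197146670-197146819 on the minus strand and HMMR at chr5:163460482-163460631 on the plus strand.
CENPE: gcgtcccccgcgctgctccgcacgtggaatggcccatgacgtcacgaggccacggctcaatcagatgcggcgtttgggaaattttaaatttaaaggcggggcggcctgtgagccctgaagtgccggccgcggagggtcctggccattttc
ASPM: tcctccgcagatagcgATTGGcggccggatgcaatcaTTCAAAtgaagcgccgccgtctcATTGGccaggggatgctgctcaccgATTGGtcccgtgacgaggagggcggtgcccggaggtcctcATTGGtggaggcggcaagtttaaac
HMMR: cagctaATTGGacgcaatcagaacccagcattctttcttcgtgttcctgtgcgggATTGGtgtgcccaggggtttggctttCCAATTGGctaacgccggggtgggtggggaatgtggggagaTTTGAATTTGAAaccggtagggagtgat

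These 3 genes had the highest fold changes of the members in BCL9 KD over NS control. The other 3 promoters belong to members with fold changes below 0. CDCA8 lies at chr1:37692366-37692515 on the plus strand, MKI67 at chr10:128126424-128126573 on the minus strand and INCENP at chr11:62123861-62124010 on the plus strand.
CDCA8: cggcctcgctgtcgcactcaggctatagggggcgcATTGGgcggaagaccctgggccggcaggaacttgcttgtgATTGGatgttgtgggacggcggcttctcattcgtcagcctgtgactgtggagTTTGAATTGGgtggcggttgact
MKI67: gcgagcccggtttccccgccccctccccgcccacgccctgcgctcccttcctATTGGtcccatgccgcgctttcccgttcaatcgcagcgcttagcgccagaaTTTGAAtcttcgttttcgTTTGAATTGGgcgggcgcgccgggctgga
INCENP: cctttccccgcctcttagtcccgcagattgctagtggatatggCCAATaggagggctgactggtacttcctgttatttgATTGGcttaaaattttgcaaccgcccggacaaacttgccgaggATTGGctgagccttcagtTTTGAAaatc

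Both kinds of promoter held the motifs. ASPM and HMMR carried 4 CCAAT matches each, with 1 TTTGAA match in ASPM and 2 in HMMR. CDCA8 and INCENP carried 1 TTTGAA match and 3 CCAAT matches each, and MKI67 carried 2 of each. The 150 bases of CENPE held 0 exact matches of either motif, which says only that these letters are not in this window. The table, with windows from 250 bases before to 50 bases after the start, held 52 windows of 42 members. TTTGAA was found on either strand in 32 of these windows (61.5%), against 15.2% of all 35116 windows, and CCAAT in 40 (76.9%), against 34.6%. Both motifs stood together in 26 of the 52 windows and in 5.90% of all windows. A match is a description of the sequence and was not tested for binding.

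Depth was between 15222452 and 26949026 reads on genes per sample. The deposited values are FPKM, reads scaled for gene length and sample depth. This scaling takes no account of base composition or of genes that overlap. BCL9, the target of the shRNA, measured 6.25, 6.24 and 5.34 FPKM in the NS control flasks 1 to 3, and 2.86, 2.78 and 2.59 FPKM in the BCL9 KD flasks 1 to 3. Its log2 fold change was −0.99 (adjusted p = 0.00773 by limma), so the knockdown was visible in every flask. The basal markers KRT5 (379 to 436 FPKM) and KRT17 (529 to 650 FPKM) and the epithelial marker EPCAM (98.2 to 114 FPKM) were high in all samples. Of the luminal markers, PGR was listed at 0 in all 6 samples and ESR1 was under 0.1 FPKM, while GATA3 had 7.08 to 9.28 and FOXA1 2.97 to 3.65 FPKM. Of the fibroblast markers, COL3A1 was listed at 0, PDGFRB had at most 0.103 FPKM and COL1A1 had 0.484 to 0.665 FPKM. The leukocyte markers PTPRC, CD3E and CD68 had at most 0.0583 FPKM. The endothelial gene PECAM1 had 1.72 to 2.29 FPKM in NS control and 3.11 to 3.91 FPKM in BCL9 KD samples and was called higher (log2 fold change 0.61, adjusted p = 0.0477 by limma), while CDH5 was under 0.06 FPKM throughout. The part of these markers in the results was not tested.

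Mitosis genes were well expressed in both groups. CDC20 had the highest mean of the members over the 6 samples, 92.1 FPKM, followed by CCNB1 with 85.5, MKI67 with 73.8 and TPX2 with 71.1 FPKM. PRC1 was lowest, with 0.192 FPKM. A gene was tested when its mean FPKM was at least 0.5, which 49 members and 13745 genes of the table met, and PRC1 was the member that did not. The 49 tested members rested on 39 to 22099 reads per sample.

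None of the tested members passed the comparison of BCL9 KD with NS control. At a limma adjusted p under 0.05, 0 of 49 members were called, against 5.87% of all genes tested, 2.96% of them higher and 2.91% lower in BCL9 KD. At an unadjusted p under 0.05, 10 members were higher and 5 were lower, where 14.5% of all genes were higher and 13.0% lower. All BCL9 KD values lay above all NS control values for 10 members (20.4% of those tested, against 17.8% of all genes) and below them for 4 members (8.16%, against 16.4%). These shares are near those of all genes in the upward direction and under them in the downward direction. Fold changes ran from a log2 value of −0.41 for FOXM1 to 1.14 for CENPE, and 37 members lay above 0 and 12 below. Their median log2 fold change was 0.19, while the median over all genes tested was 0.04.

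**Figure D1:**
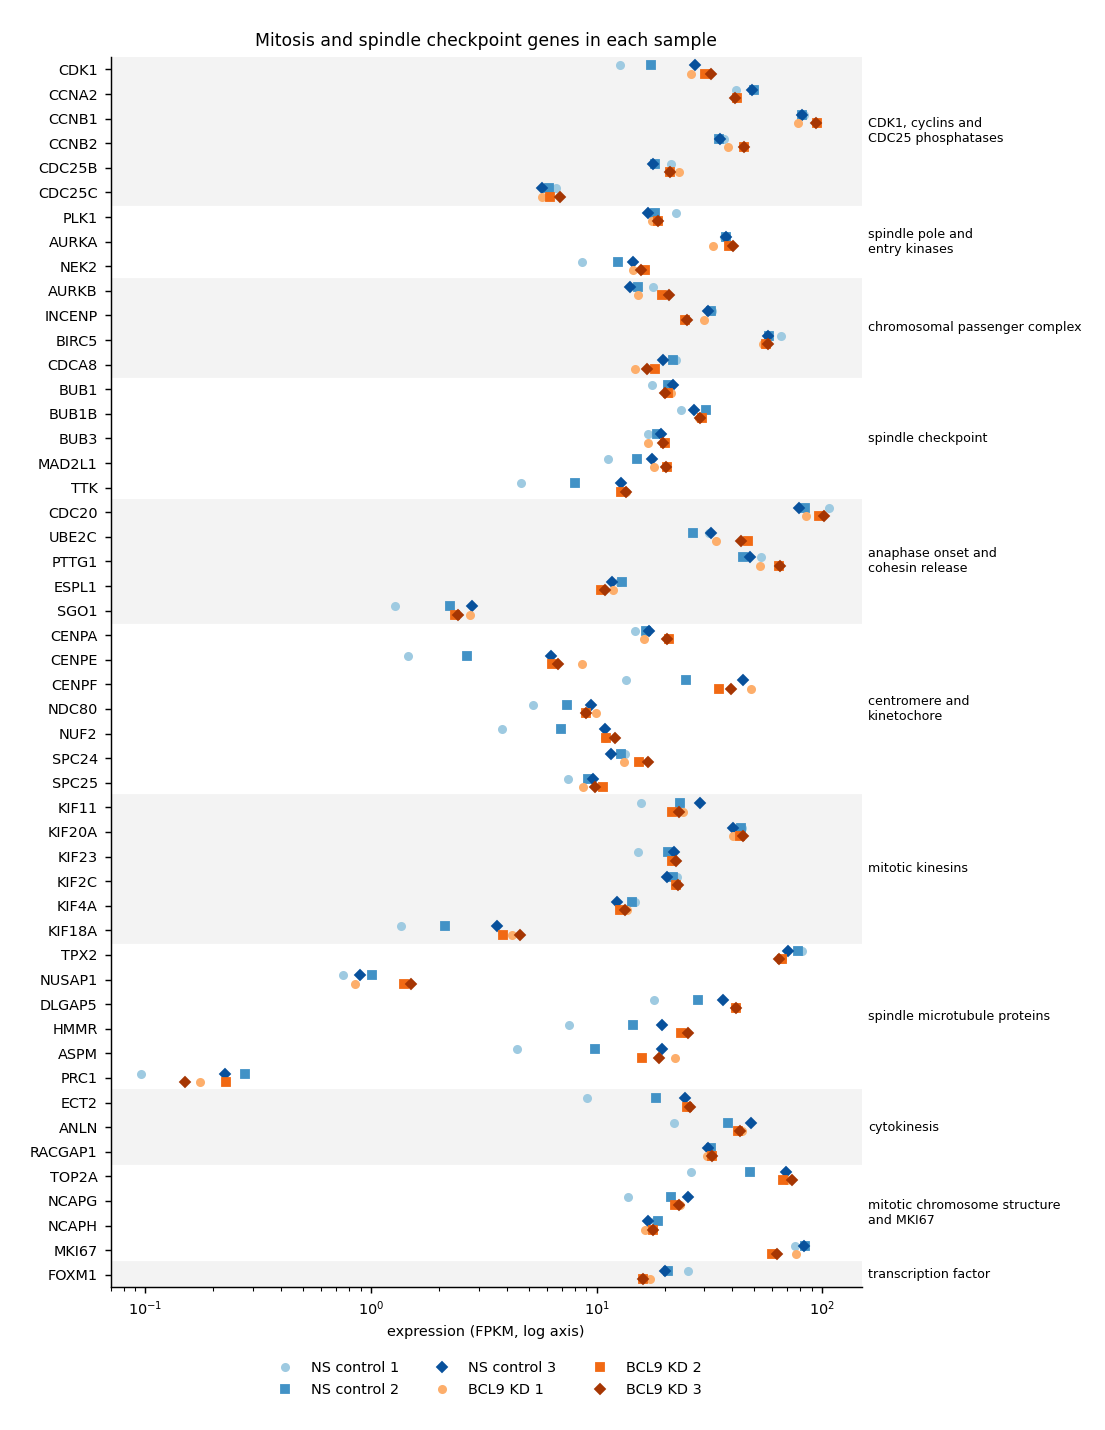
Expression of the 50 mitosis and spindle checkpoint genes in FPKM on a log axis, with a point per sample and the genes grouped by role. Blue points are NS control and orange points BCL9 KD replicates. CENPE, ASPM, TTK and ECT2 had NS control values that were further apart than their BCL9 KD values, with NS control replicate 1 lowest.

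The cyclins and CDK1 come first, as the engine of mitotic entry. CDK1 (ENSG00000170312, chromosome 10 of GRCh38, 60778331 to 60794852) had 12.7, 17.4 and 27.2 FPKM in NS control and 26.2, 30.2 and 32.1 FPKM in BCL9 KD, in the order of replicates 1, 2 and 3, which all lists of values follow. NS control replicate 3 lay within the BCL9 KD values, and the other NS control replicates lay below all of them. The log2 fold change was 0.68 with a standard error of 0.25 (adjusted p = 0.141 by limma). CCNB1, which encodes cyclin B1, had 82.8, 81.4 and 81.3 FPKM in NS control and 78.2, 95.2 and 94.0 FPKM in BCL9 KD. The NS control flasks were within 1.02-fold of each other, and BCL9 KD replicate 1 lay below them while the other BCL9 KD replicates lay above (log2 fold change 0.12, adjusted p = 0.423 by limma). CCNB2, for cyclin B2, was higher in all BCL9 KD samples, with a log2 fold change of 0.26 (adjusted p = 0.105 by limma). CCNA2, for cyclin A2, had a log2 fold change of −0.17 (adjusted p = 0.25 by limma). Of the CDC25 phosphatases, which remove the inhibitory phosphates from CDK1, CDC25B had a log2 fold change of 0.19 and CDC25C of 0.02.

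Of the 3 kinases of the spindle pole and of mitotic entry, 0 were called, and NEK2 lay further from 0 than PLK1 and AURKA. PLK1, which acts at centrosomes, kinetochores and the cleavage site, had 22.6, 18.1 and 16.9 FPKM in NS control and 17.6, 18.7 and 18.7 FPKM in BCL9 KD. All of its BCL9 KD values lay inside the NS control range (log2 fold change −0.06, adjusted p = 0.762 by limma). AURKA, the Aurora kinase of the spindle pole, had 36.6, 37.3 and 37.4 FPKM in NS control and 32.7, 38.7 and 40.4 FPKM in BCL9 KD. Its log2 fold change was 0.00076, with a 95% confidence interval from −0.21 to 0.21, and the sign of so small a value turned under other scalings. NEK2, a kinase of centrosome separation, had a log2 fold change of 0.41 (adjusted p = 0.193 by limma), with NS control replicate 1 lowest, and 0.20 without that replicate.

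The chromosomal passenger complex held 2 of the 5 lowest fold changes. It joins the kinase AURKB to INCENP, BIRC5 (survivin) and CDCA8 (borealin) and corrects faulty attachments of chromosomes. CDCA8 had 22.5, 21.9 and 19.6 FPKM in NS control and 14.8, 18.1 and 16.8 FPKM in BCL9 KD. Every BCL9 KD value was below every NS control value, and the log2 fold change was −0.35 with a standard error of 0.0959 (adjusted p = 0.0730 by limma). INCENP, the scaffold of the complex, had 32.6, 32.2 and 31.1 FPKM in NS control and 29.8, 24.8 and 25.2 FPKM in BCL9 KD. The groups did not overlap here either (log2 fold change −0.27, adjusted p = 0.109 by limma). AURKB had 17.9, 15.3 and 14.1 FPKM in NS control and 15.3, 19.5 and 21.0 FPKM in BCL9 KD, with overlap and a log2 fold change of 0.23 (adjusted p = 0.323 by limma). BIRC5 had a log2 fold change of −0.10.

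Spindle checkpoint genes had fold changes above 0 for 5 of 5, with BUB1 turning to −0.02 after a GC correction and BUB1 and BUB3 below 0 without NS control replicate 1, and 0 of 5 passed the test. TTK, the kinase also called MPS1 that starts checkpoint signaling, had 4.61, 7.99 and 12.8 FPKM in NS control and 13.5, 12.8 and 13.5 FPKM in BCL9 KD. NS control replicate 3 almost reached the BCL9 KD values, which lay within 1.05-fold of each other, while NS control replicates were up to 2.77-fold apart (log2 fold change 0.73, standard error 0.309, adjusted p = 0.184 by limma). Its log2 fold change was 0.38 without NS control replicate 1 and 1.06 without NS control replicate 3. MAD2L1, the checkpoint protein that binds CDC20, had 11.2, 15.2 and 17.6 FPKM in NS control and 18.0, 20.6 and 20.3 FPKM in BCL9 KD. The groups did not overlap, and the log2 fold change was 0.43 (adjusted p = 0.139 by limma), with 0.26 without NS control replicate 1 and 0.21 after the GC correction. BUB1, the kinase that brings checkpoint proteins to kinetochores, had 17.6, 20.7 and 21.9 FPKM in NS control and 21.3, 20.7 and 20.2 FPKM in BCL9 KD, with the BCL9 KD values inside the NS control range. The log2 fold change of BUB1 was 0.05, that of BUB1B (BUBR1) was 0.10 and that of BUB3 was 0.05. Without NS control replicate 1, that of BUB1B was 0.0054.

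Genes of anaphase onset had mean levels from 2.30 FPKM for SGO1 to 92.1 FPKM for CDC20, and 0 of 5 were called. CDC20, which activates the APC/C, had 107, 84.3 and 79.1 FPKM in NS control and 84.4, 96.6 and 101 FPKM in BCL9 KD. The groups overlapped (log2 fold change 0.07, adjusted p = 0.75 by limma). UBE2C, the ubiquitin-conjugating enzyme of the APC/C, had 31.6, 26.7 and 32.1 FPKM in NS control and 33.9, 46.8 and 43.5 FPKM in BCL9 KD. All BCL9 KD values were higher, with a log2 fold change of 0.44 and a standard error of 0.136 (adjusted p = 0.0955 by limma). PTTG1, which encodes securin, had a log2 fold change of 0.31 (adjusted p = 0.124 by limma), and ESPL1, the separase that securin holds back, had −0.16 (adjusted p = 0.239 by limma). SGO1, the protector of centromeric cohesin, had a log2 fold change of 0.25 (adjusted p = 0.496 by limma), which was −0.0074 without NS control replicate 1.

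Kinetochore genes were all above 0, with 7 of 7 log2 fold changes positive and 0 called. CENPE (ENSG00000138778, chromosome 4, 103105806 to 103198409), the kinesin that carries chromosomes along microtubules to the spindle middle, had the highest fold change of the members. It had 1.46, 2.66 and 6.26 FPKM in NS control and 8.60, 6.33 and 6.74 FPKM in BCL9 KD. The lowest BCL9 KD value was just above NS control replicate 3, and the NS control replicates were up to 4.29-fold apart. The log2 fold change of CENPE was 1.14 with a 95% confidence interval from 0.17 to 2.12 (adjusted p = 0.133 by limma). NDC80, which binds microtubules, had 5.22, 7.39 and 9.45 FPKM in NS control and 9.95, 8.96 and 9.01 FPKM in BCL9 KD, with overlap (log2 fold change 0.35, adjusted p = 0.269 by limma). Its partners in the NDC80 complex had log2 fold changes of 0.72 for NUF2, 0.26 for SPC24 and 0.15 for SPC25. Without NS control replicate 1, the log2 fold change was 0.14 for NDC80, 0.36 for NUF2, 0.30 for SPC24 and 0.05 for SPC25. CENPA, the histone that marks centromeres, had 14.8, 16.5 and 17.0 FPKM in NS control and 16.3, 20.9 and 20.6 FPKM in BCL9 KD (log2 fold change 0.24, adjusted p = 0.215 by limma). CENPF, a large protein of the outer kinetochore, had a log2 fold change of 0.70 (adjusted p = 0.281 by limma).

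Of the mitotic kinesins 0 of 6 were called, and KIF18A had the highest fold change. KIF18A, which dampens the swings of chromosomes, had 1.36, 2.13 and 3.60 FPKM in NS control and 4.21, 3.83 and 4.58 FPKM in BCL9 KD. The groups did not overlap (log2 fold change 0.79, standard error 0.267, adjusted p = 0.117 by limma), on 144 to 482 reads per sample. KIF11, the motor that pushes spindle poles apart, had 15.8, 23.4 and 28.8 FPKM in NS control and 24.3, 21.6 and 23.2 FPKM in BCL9 KD. The BCL9 KD values lay inside a wide NS control range, and the log2 fold change was 0.06 (adjusted p = 0.866 by limma). KIF20A, KIF23, KIF2C and KIF4A had log2 fold changes between −0.06 and 0.19. The highest of these, KIF23, was 0.03 without NS control replicate 1.

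Spindle microtubule proteins held both high and low members. ASPM (ENSG00000066279, chromosome 1, 197084128 to 197146694), which focuses spindle poles, had 4.46, 9.80 and 19.6 FPKM in NS control and 22.3, 16.0 and 19.0 FPKM in BCL9 KD. NS control replicate 3 lay among the BCL9 KD values, and NS control replicates were 4.39-fold apart (log2 fold change 0.95, standard error 0.458, adjusted p = 0.232 by limma). HMMR, a microtubule-binding protein that is also a hyaluronan receptor, had 7.57, 14.4 and 19.6 FPKM in NS control and 24.6, 23.8 and 25.4 FPKM in BCL9 KD. All BCL9 KD values were higher, with a log2 fold change of 0.90 and a standard error of 0.30 (adjusted p = 0.113 by limma). DLGAP5, which stabilizes spindle fibres, had a log2 fold change of 0.64 (adjusted p = 0.132 by limma) and of 0.37 without NS control replicate 1. TPX2, the activator of AURKA, had 81.3, 77.8 and 70.4 FPKM in NS control and 66.5, 66.1 and 64.6 FPKM in BCL9 KD. Its groups did not overlap in the downward direction (log2 fold change −0.21, adjusted p = 0.12 by limma).

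Cytokinesis genes showed no called change. ECT2, which activates RhoA at the cleavage site, had 9.06, 18.2 and 24.8 FPKM in NS control and 25.3, 25.3 and 25.9 FPKM in BCL9 KD. BCL9 KD replicates of ECT2 were within 1.02-fold of each other and just above NS control replicate 3, with a log2 fold change of 0.65 and a standard error of 0.320 (adjusted p = 0.237 by limma). RACGAP1, the partner that recruits ECT2, had a log2 fold change of 0.02, and ANLN, which links actin to the furrow, had 0.32.

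Among the genes of chromosome structure and the proliferation marker MKI67, 0 of 4 were called, with 2 log2 fold changes above 0 and 2 below. TOP2A, which untangles sister DNA, had 26.3, 47.8 and 69.3 FPKM in NS control and 70.1, 67.3 and 73.5 FPKM in BCL9 KD. NS control replicate 3 again reached the BCL9 KD values (log2 fold change 0.66, adjusted p = 0.223 by limma). MKI67, for the protein Ki-67 that coats mitotic chromosomes, had 76.0, 84.1 and 83.4 FPKM in NS control and 76.4, 59.7 and 62.9 FPKM in BCL9 KD. BCL9 KD replicates 2 and 3 were lower than all NS control values, and replicate 1 was not (log2 fold change −0.30, standard error 0.105, adjusted p = 0.129 by limma). The condensin subunits NCAPG and NCAPH had log2 fold changes of 0.23 and −0.05, and that of NCAPG was −0.02 without NS control replicate 1.

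FOXM1 (ENSG00000111206, chromosome 12, 2857681 to 2877155), the transcription factor of the late cell cycle wave, had the lowest fold change of the 49. It had 25.5, 20.7 and 20.01 FPKM in NS control and 17.2, 16.0 and 16.1 FPKM in BCL9 KD. The groups did not overlap, and the log2 fold change was −0.41 with a standard error of 0.103 and a 95% confidence interval from −0.65 to −0.16 (adjusted p = 0.0630 by limma). With protein-coding genes only, 2 members were lower at a limma adjusted p under 0.05, FOXM1 (0.0399) and CDCA8 (0.0487), against 6.03% of the genes tested. Voom, a limma method for counts that was chosen after seeing the data and run on the recovered reads, called FOXM1 (adjusted p = 0.0415), against 5.00% of all genes lower. With 3 replicates against 3, the two-sided exact permutation test can reach no less than p = 0.1, which all 14 members without overlap had.

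**Figure D2:**
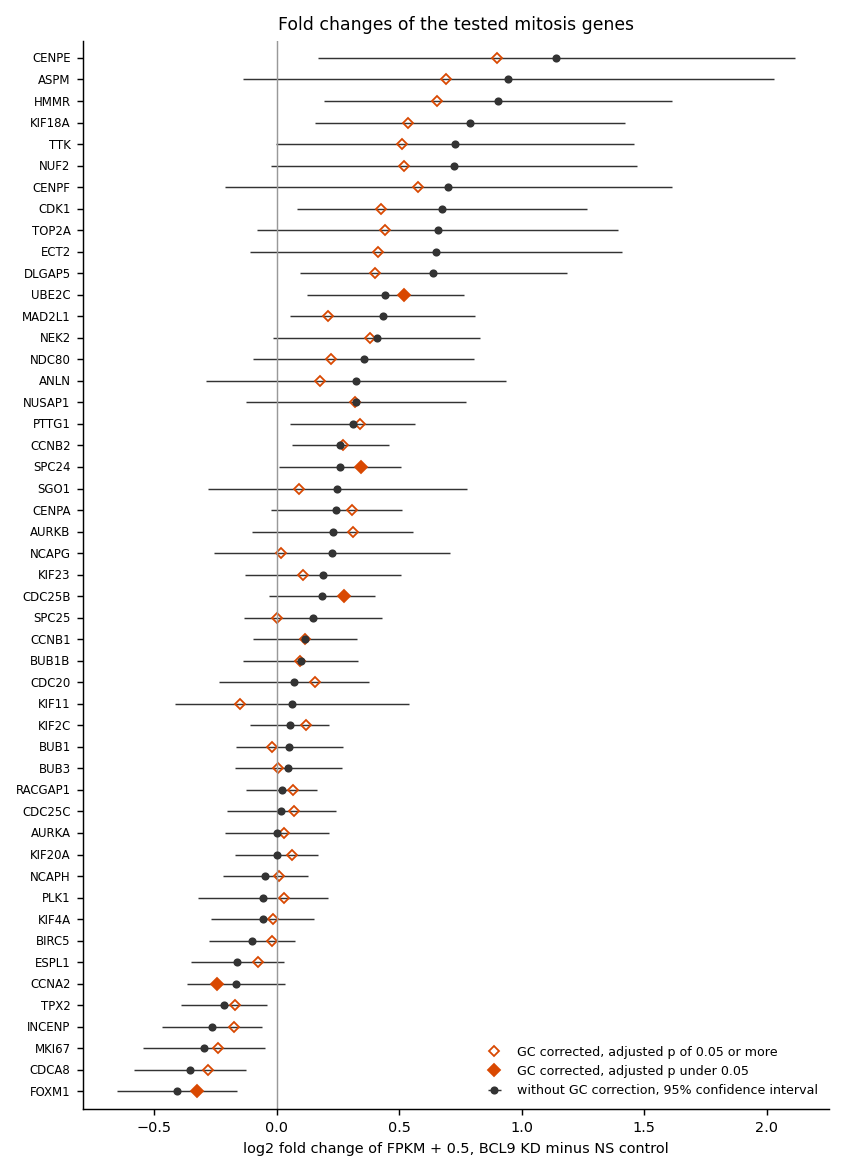
Log2 fold change of FPKM + 0.5, BCL9 KD minus NS control, for the 49 tested members in rising order. Black points carry 95% confidence intervals, and orange diamonds show the fold change after a correction for GC content, filled for the 5 members with an adjusted p under 0.05. The intervals widen toward the top, from FOXM1 (−0.65 to −0.16) to CENPE (0.17 to 2.12), and the diamonds of the top members lie closer to 0.

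The members differed in base composition, and the spread between NS control flasks followed it. Transcripts of CENPE were 35.1% G and C, those of CDK1 35.8%, those of CDC25B 58.2% and those of INCENP 59.0%, the ends of the range among tested members. To show this in the letters, the middle 60 bases of each coding sequence (GENCODE v44lift37) are printed 5′ to 3′ with G and C in capitals. They are bases 4022 to 4081 of 8103 in CENPE and 416 to 475 of 891 in CDK1.
CENPE: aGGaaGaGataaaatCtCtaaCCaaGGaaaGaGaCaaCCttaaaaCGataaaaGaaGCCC
CDK1: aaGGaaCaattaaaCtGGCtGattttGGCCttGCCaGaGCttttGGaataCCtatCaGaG

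The windows of the other 2 genes are bases 841 to 900 of 1740 in CDC25B and 1348 to 1407 of 2754 in INCENP. G and C made up 22 of the 60 bases in CENPE, 25 in CDK1, 33 in CDC25B and 37 in INCENP.
CDC25B: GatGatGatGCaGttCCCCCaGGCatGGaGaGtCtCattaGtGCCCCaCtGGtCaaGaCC
INCENP: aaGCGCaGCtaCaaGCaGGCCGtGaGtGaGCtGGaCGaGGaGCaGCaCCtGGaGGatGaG

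NS control replicate 1 stood apart along this axis over the whole table. The correlation across genes between its log2 deviation from the mean of 6 samples and GC content was r = 0.49 over 13577 tested genes, and in the other samples r lay between −0.23 and 0.05. Over the 49 members, r was 0.82 for NS control replicate 1, 0.45 for replicate 2 and −0.73 for replicate 3, and it lay between −0.62 and −0.55 in the BCL9 KD samples. These are descriptions across genes of the same libraries, and genes are not independent replicates. In the quartile of tested genes with the lowest GC content, at most 42.5%, the median deviation of NS control replicate 1 was −0.40 over all genes and −0.84 over the members.

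Of the 49 tested members, 21 fell in this lowest quartile, a grouping that was made after the values were seen and is given without a test. NS control replicate 1 was the lowest NS control sample for all 21 of them, and NS control replicate 3 was the highest for 20. The SD of log2 values had a median of 0.537 across NS control flasks and 0.0777 across BCL9 KD flasks, and it was larger in NS control for all 21. These members had a median log2 fold change of 0.64, and 20 of 21 were above 0, with CCNA2 as the exception. Without NS control replicate 1 their median was 0.26, with 16 above 0 and 5 below. Among them were CENPE, ASPM, HMMR, KIF18A, TTK, CDK1, TOP2A and ECT2. For the lowest quartile of all genes tested, the median log2 fold change was 0.22.

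The spread was smaller for most of the other 28 members. Their SD had a median of 0.10 in NS control and 0.128 in BCL9 KD, and it was larger in NS control for 12 of them. NEK2, with a GC content of 43.3%, had an SD of 0.371 in NS control, the highest of the 28, and 0.0929 in BCL9 KD, and NS control replicate 1 lay 0.61 log2 units below the mean of the other NS control replicates. Their median log2 fold change was 0.03, with 17 above 0 and 11 below. This group held FOXM1, CDCA8, MKI67, INCENP and TPX2, and also CCNB1, PLK1, AURKA, AURKB, CDC20 and UBE2C. Within the 49 members, GC content and log2 fold change had r = −0.67, and over all genes tested r was −0.25.

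**Figure D3:**
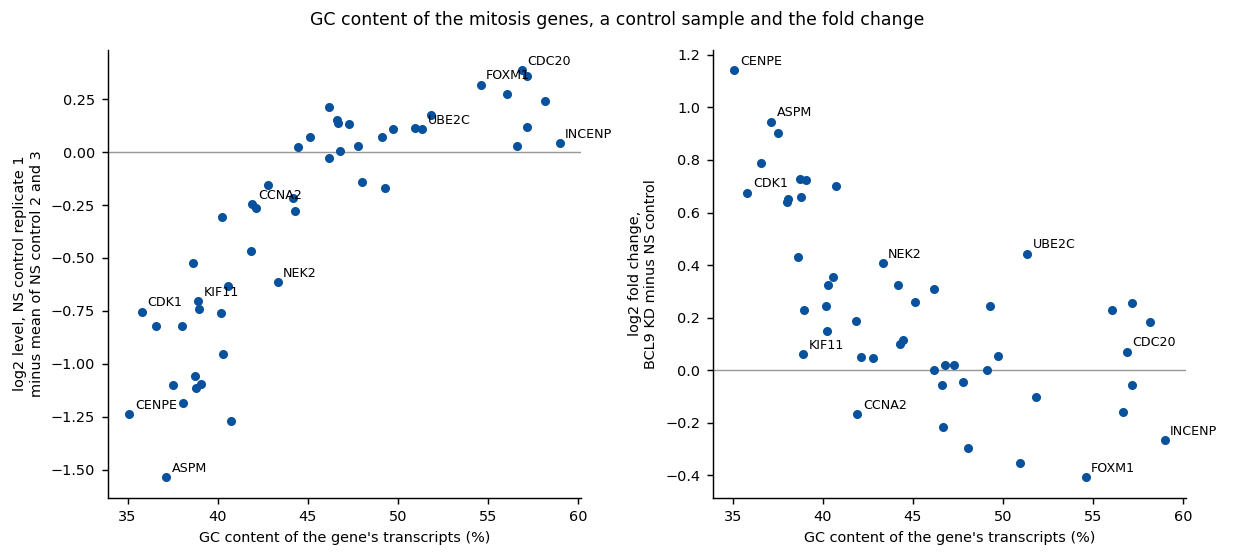
GC content of each tested member's transcripts in percent against, on the left, the log2 level of NS control replicate 1 minus the mean of NS control replicates 2 and 3 and, on the right, the log2 fold change of BCL9 KD minus NS control. A point is a gene (49 members). Members with low GC content, such as ASPM and CENPE, lie far below 0 on the left and above 0 on the right.

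A GC correction was run to see how the calls moved, with a smooth curve of log2 level on GC content taken out of each sample. After it, 3 members were called higher, UBE2C (log2 fold change 0.52, adjusted p = 0.0472 by limma), SPC24 (0.34, adjusted p = 0.0492 by limma) and CDC25B (0.28, adjusted p = 0.0365 by limma), against 7.24% of all genes. Called lower were CCNA2 (−0.24, adjusted p = 0.0281 by limma) and FOXM1 (−0.32, adjusted p = 0.0285 by limma), against 5.42% of all genes. The median over the 49 members moved to 0.12, and that of the 21 members with low GC content to 0.40. NS control replicate 1 remained low in these 21, with a median 0.38 log2 units below the mean of NS control replicates 2 and 3, where it had been 0.82 below before the correction. The median SD of the 21 across NS control flasks was still 0.271 after the correction. The cause of the remaining gap was not tested.

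**Figure D4:**
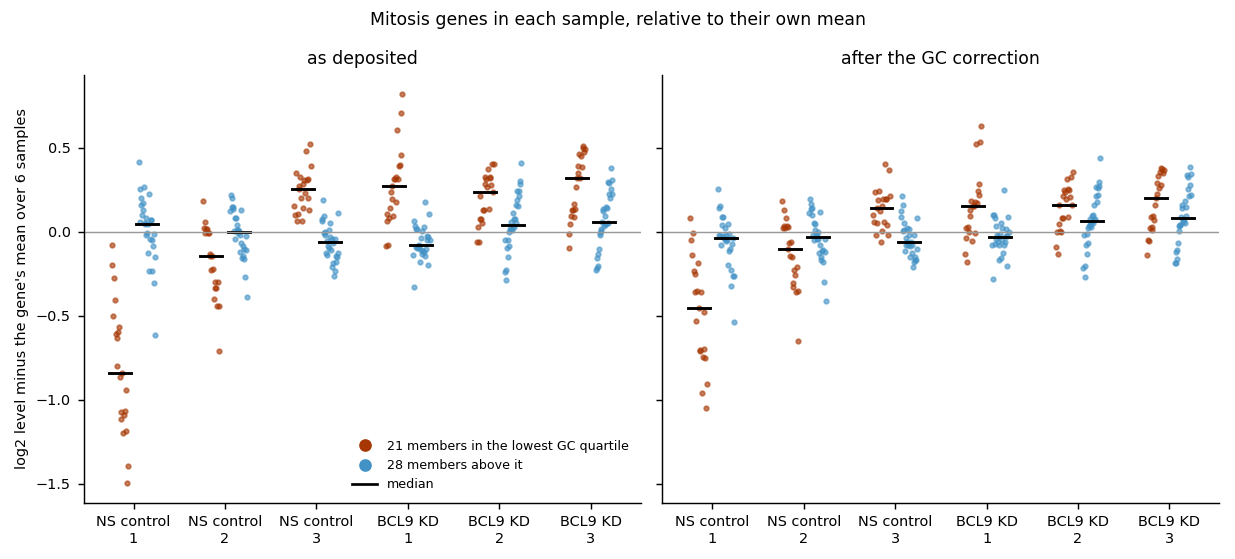
Log2 level of each tested member minus its own mean over the 6 samples, by sample, as deposited on the left and after the GC correction on the right. Brown points are the 21 members in the lowest quartile of GC content, blue points the other 28, and black bars the medians. The brown points of NS control replicate 1 have a median of −0.84 on the left, are nearer to 0 on the right and are still the lowest there.

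Each flask was left out in turn to see which samples carried the result. Without NS control replicate 1, the median log2 fold change of the members was 0.09, and 0 members were called, against 4.98% of all genes. Members above 0 then numbered 33 and those below 16. Of the 36 members with a log2 fold change of at least 0.1 in size, 20 shrank by more than 1.5 times or changed sign, 18 of them in the lowest quartile of GC content. The log2 fold change of CENPE moved from 1.14 to 0.73, that of ASPM from 0.95 to 0.43, that of CENPF from 0.70 to 0.28, that of TOP2A from 0.66 to 0.29, that of ECT2 from 0.65 to 0.26 and that of ANLN from 0.32 to 0.0060. HMMR had 0.54, KIF18A 0.52 and CDK1 0.42. In this fit 8 members changed sign, KIF11 to −0.17, BUB1 to −0.04, NCAPG to −0.02, AURKA to −0.0079, SGO1 to −0.0074 and BUB3 to −0.0036, with PLK1 at 0.06 and KIF20A at 0.02 above 0. Without NS control replicate 3, 10 members were called higher, against 6.74% of all genes. They were CDK1, TTK, CENPE, CENPF, NUF2, KIF18A, DLGAP5, HMMR, ASPM and TOP2A, all in the lowest quartile of GC content, with a log2 fold change of 1.62 for CENPE (adjusted p = 0.0243 by limma). FOXM1 and CDCA8 were called lower in the same fit, against 5.89% of all genes. Without BCL9 KD replicate 1, CCNB2 and UBE2C were called higher, against 3.34% of all genes, and INCENP and MKI67 lower, against 2.12%. With any of the other 3 flasks left out, 0 members were called, but few genes of any kind were, 0.0873% without NS control replicate 2, 0.0943% without BCL9 KD replicate 2 and 0.0363% without BCL9 KD replicate 3.

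Some members lie over other genes, and their reads may not all have been counted on them. The library kit does not mark strand, and 30 of the 50 members overlap another gene of the table, 8 of them with one gene over at least 25% of their span. PRC1, the microtubule bundler of the spindle middle, had 0.0956 to 0.277 FPKM, and AC068831.7 on the same strand covers 99.5% of it. NUSAP1, a spindle protein, had 0.75 to 1.51 FPKM, and AC087721.2, listed at 0 in all samples, covers 99.4% of it on the same strand. These low levels are uncertain for that reason. CENPA shares 46.1% of its span with SLC35F6 on the same strand, which had 16.3 to 27.2 FPKM. SGO1, NUF2, SPC25, KIF2C and HMMR share 28.0% to 62.0% with genes on the opposite strand, whose own values were under 0.6 FPKM.

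Beyond the 50 members, 104 other genes of the mitotic machinery were followed, and 103 were tested. Of these, 6 rose and 3 fell (5.83% and 2.91% of those tested), against 2.96% and 2.91% of all genes, and their median log2 fold change was 0.14. With median-of-ratios scaling or without the trend, CENPH, CDC23 and SMC1A remained called and the other 6 did not. Without NS control replicate 1, CDC25A, CKS1B, CKS2 and HAUS1 lost the call, and with no filter on low FPKM SMC1A alone kept it. Without BCL9 KD replicate 1, CDC25A, CKS2 and HAUS1 lost it. CKS2 alone lost it with the GC correction (log2 fold change 0.29, adjusted p = 0.0688 by limma) and with quantile normalization (adjusted p = 0.0561 by limma). None of the 9 genes had a call without NS control replicate 2, BCL9 KD replicate 2 or BCL9 KD replicate 3. No sign changed under any of the 19 settings, several of which, such as the filters and the replicate block, cannot move a fold change. Entry control held 4 of the 9 called genes, out of 16 tested in that group, where 5.87% of all genes were called. CKS1B, a small partner of CDKs, had 32.1, 31.2 and 33.7 FPKM in NS control and 41.1, 52.5 and 52.0 FPKM in BCL9 KD (log2 fold change 0.57, adjusted p = 0.0352 by limma). Its relative CKS2 rose by 0.39 (adjusted p = 0.0398 by limma), as did ENSA by 0.39 (adjusted p = 0.0370 by limma), whose phosphorylated protein blocks the phosphatase that opposes CDK1. CDC25A, a phosphatase of the CDC25 family, fell by 0.38 on the log2 scale (adjusted p = 0.0475 by limma).

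Of the 15 APC/C subunits and regulators tested, 1 was called higher and 1 lower, against 2.96% and 2.91% of all genes, and the median log2 fold change of the group was 0.0076. ANAPC11, its catalytic RING subunit, had 13.6, 10.6 and 12.9 FPKM in NS control and 16.6, 21.1 and 20.1 FPKM in BCL9 KD, with the largest log2 fold change of the 6 called rises (0.62, adjusted p = 0.0427 by limma). CDC23, a scaffold subunit, had 13.7, 15.4 and 14.1 FPKM in NS control and 9.91, 10.6 and 10.5 FPKM in BCL9 KD (log2 fold change −0.46, adjusted p = 0.0273 by limma). CENPH of the inner kinetochore rose by 0.57 (adjusted p = 0.0202 by limma), and HAUS1 of the augmin complex, which branches spindle microtubules, rose by 0.43 (adjusted p = 0.0466 by limma). SMC1A, a core subunit of the cohesin ring, had 33.2, 36.6 and 33.0 FPKM in NS control and 24.8, 24.1 and 23.0 FPKM in BCL9 KD, the largest fall of the list (log2 fold change −0.50, adjusted p = 0.0188 by limma). All 9 genes had groups without overlap, but they were picked by adjusted p on the same values, so this adds no support. Of all genes, 17.8% had every BCL9 KD value higher and 16.4% every one lower.

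**Figure D5:**
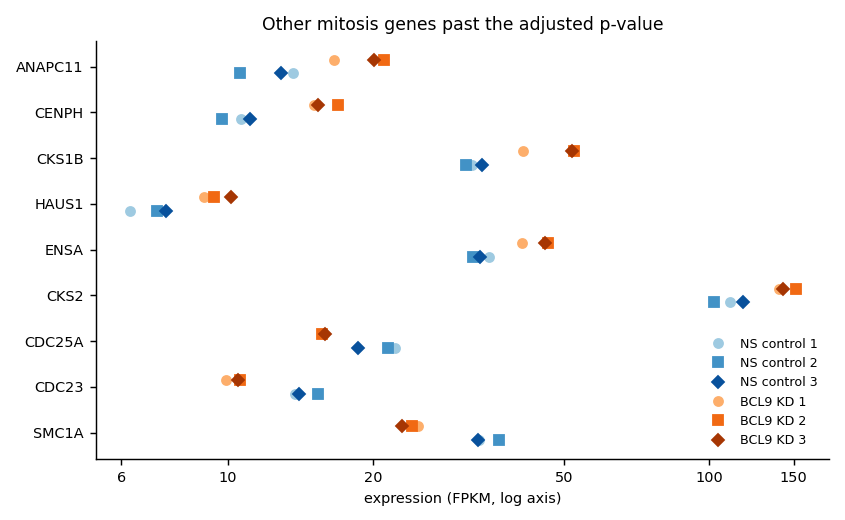
Expression in FPKM on a log axis of the 9 other mitosis genes with a limma adjusted p under 0.05, a point per sample, with NS control in blue and BCL9 KD in orange. The 6 upper genes are higher and the 3 lower ones (CDC25A, CDC23 and SMC1A) lower in every BCL9 KD sample than in any NS control sample.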

How the data were processed

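RNA was sequenced from 3 NS control and 3 BCL9 KD samples. The authors mapped reads to hg38 (STAR), took read counts from HTSeq 0.6.1 and deposited FPKM, with the gene length in bases as another unit. FPKM times gene length gave whole multiples of a step for 100% of values (tolerance 0.1), which recovered the reads: 15222452 to 26949026 per sample. Reads carry no molecular identifiers, so the real uncertainty exceeds counting error.

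BCL9 KD was compared with NS control by limma 3.58.1 (R 4.3.3) (empirical Bayes, mean-variance trend) of log2(FPKM + 0.5), for genes with a mean of at least 0.5 FPKM, with Benjamini-Hochberg adjustment over all of them. The added 0.5 FPKM understates fold changes of low genes. The authors used DESeq2, which takes counts. The methods name 2 replicates per condition and the labels 3, and all 3 were used. The members and the other lists were chosen with earlier results of these data known. Values are given in every sample for the 5 highest and 5 lowest fold changes, and for defining genes of each role. The other called mitosis genes are named.

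GC content came from GENCODE v44lift37 transcripts (98.8% of tested genes), and its correction was a loess curve with a span of 0.3. The fit was tested on simulated data. Promoters came from RefSeq, with 42 of 50 members matched. The alternatives were an added 1 or 0.1 FPKM, a mean of at least 1 FPKM, no filter, quantile normalization, median-of-ratios scaling, fits without the trend or robust, a replicate block, only protein-coding genes, the GC correction alone or with the block, and each replicate left out. Voom was added after seeing the data. Python 3.11 with pandas 2.3.3, numpy 2.4.6, scipy 1.17.1 and matplotlib 3.10.9 was used.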

Additional observations from a re-analysis of the deposited data

How the results depend on the processing

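The count of members called was 0 under 10 of 13 other settings and with 4 of the 6 samples left out. This says nothing of stability where few genes were called at all, 0 with the replicate block, 0.462% with no filter and 0.0363% to 0.0943% without NS control replicate 2, BCL9 KD replicate 2 or BCL9 KD replicate 3. The count was 2 with protein-coding genes only, 5 with the GC correction and 1 with voom, a setting chosen after seeing the data. Of all genes, 12.6%, 12.7% and 10.2% were called under these settings. With each sample left out it ran from 0 to 12, highest without NS control replicate 3 and 4 without BCL9 KD replicate 1. The shares of all genes called in these fits were 12.6% and 5.46%. The members' median log2 fold change was 0.19 and ran from 0.090 without NS control replicate 1 to 0.217 without NS control replicate 3. The 9 other mitosis genes called became 1 with no filter on low FPKM, 3 with median-of-ratios scaling and 3 without the trend. Of all genes, 0.462%, 3.9% and 2.42% were called there, against 5.87% in the reported fit. With a sample left out they ran from 0 to 24. They numbered 5 without NS control replicate 1, against 4.98% of all genes, and 24 without NS control replicate 3, against 12.6%. They numbered 0 without NS control replicate 2, BCL9 KD replicate 2 or BCL9 KD replicate 3. The cause of these moves was not tested.

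A replicate block on the numbers in the labels called 0 members, 0 other mitosis genes and 0 genes in all. At an unadjusted p under 0.05 by limma there were 3235 genes. In this balanced design the block cannot move a fold change, so the members' median of 0.19 was fixed in advance. Same-numbered samples had correlations of −0.15, −0.09 and −0.0029 between their deviations across genes, and no sample correlated best with its own number. These values show no sign of pairing by number, which was not tested further. When the GC correction was combined with this block, 0 members and 0 other mitosis genes were called.

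Of the 49 tested members, 37 kept their sign under all 19 settings and 12 did not. The FPKM filters, the fits without the trend or robust, the replicate block and the protein-coding set cannot move a fold change. Adding the block to the GC correction cannot either, so a sign was free to change only under the other settings. SGO1 (0.25), NCAPG (0.23) and BUB3 (0.05) turned below 0 only without NS control replicate 1, to −0.0074, −0.019 and −0.0036. Of the 24 members given with a value in every sample, 5 changed sign, with log2 fold changes of at most 0.07 in size. CDC25C, KIF20A, RACGAP1 and NCAPH, at most 0.05 in size, also changed sign. AURKA was −0.043 with median-of-ratios scaling and −0.024 with quantile normalization, where CDC20 was −0.014. With the GC correction, PLK1 was 0.029, BUB1 −0.019 and KIF11 −0.15, values that the block cannot move. With each sample left out, PLK1 ran from −0.141 to 0.062, AURKA from −0.060 to 0.091, BUB1 from −0.038 to 0.114, CDC20 from −0.018 to 0.199 and KIF11 from −0.174 to 0.252. With 39 to 68 reads in 5 of its 6 samples, NUSAP1 is the tested member that depth limits most.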

Other observations

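Genes of DNA replication and S phase had a median log2 fold change of −0.08 over 35 tested genes, with 25 of them below 0 and 10 above. By limma 1 of the 35 was called lower (2.86%) and 0 higher, against 2.91% and 2.96% of all genes, a share near that of all genes. The gene called was POLE, the catalytic subunit of DNA polymerase epsilon, which had 12.05, 12.01 and 10.8 FPKM in NS control and 9.11, 8.21 and 8.46 FPKM in BCL9 KD (log2 fold change −0.41, adjusted p = 0.0387 by limma). At an unadjusted p under 0.05, 11 of the 35 genes were lower and 3 higher, where 13.0% of all genes were lower and 14.5% higher. Among the 11 were the helicase subunits MCM2 (−0.31), MCM4 (−0.27) and MCM6 (−0.25), the histone chaperone subunit CHAF1A (−0.36) and POLD1 of DNA polymerase delta (−0.34), none of which passed after adjustment. The 3 higher genes were GINS3 (0.41) and GINS1 (0.27) of the GINS complex and the clamp loader subunit RFC4 (0.38), and none of these passed after adjustment either. After the GC correction, 4 of the 35 were called lower (11.4%, against 5.42% of all genes), POLD1 (−0.29), POLE (−0.33), CHAF1A (−0.28) and POLA1 (−0.26), and GINS3 was called higher (0.47), 2.86% of the list against 7.24% of all genes. The median remained below 0 after the GC correction (−0.06) and without NS control replicate 1 (−0.08).

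The regulators of the late cell cycle wave, the DREAM and MuvB genes, showed 0 of 14 called by limma, against 5.87% of all genes, and at an unadjusted p under 0.05 there were 3 lower and 0 higher, where 13.0% of all genes were lower and 14.5% higher. These 3 were MYBL2, which had 82.0, 61.8 and 57.4 FPKM in NS control and 51.9, 51.4 and 52.5 FPKM in BCL9 KD, RBBP4 (log2 fold change −0.24) and CDKN1A (−0.29). Their adjusted p-values by limma were between 0.0718 and 0.145. The median log2 fold change of the 14 genes was 0.0010, with 7 above 0 and 7 below. LIN9 had the highest, 0.62 (adjusted p = 0.209 by limma), which was 0.32 without NS control replicate 1. After the GC correction, RBBP4 was called lower (−0.23, adjusted p = 0.0339 by limma) and TFDP1 higher (0.21, adjusted p = 0.0452 by limma), each 1 of 14, against 5.42% and 7.24% of all genes. These genes were singled out after their values were seen.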
